A study of Mus musculus with 15 samples.

Results

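The 10 genes described here encode the enzymes that make prostaglandins and leukotrienes and the enzyme that starts prostaglandin breakdown. They are Ptgs1, Ptgs2, Ptges, Ptgds, Hpgds, Hpgd, Alox5, Alox5ap, Ltc4s and Lta4h. They were taken by symbol from the 54532 genes of the deposited skin table, in all 12 libraries. The rule itself used no measured value, but the 10 genes were chosen with earlier results of these data known. All 10 were found, and all 10 were among the 17646 genes kept for testing because their FPKM (reads scaled to gene length and library size) was at least 0.5 in at least 3 libraries, Ptgs2 by way of its MC903 libraries. Mouse skin was sequenced in 4 groups of 3 libraries. These were skin labelled Trpv3-knockout given MC903 for 7 days, wild type skin given MC903 for 7 days, untreated skin labelled Trpv3-knockout, and untreated wild type skin. Trpv3 encodes a calcium-permeable channel of keratinocytes that opens on warming, and MC903 (calcipotriol) is a vitamin D analogue used on mouse skin to raise an inflammation that models atopic dermatitis. The series speaks of conditional Trpv3 knockouts, and its labels do not state in which cells the gene is lost, the strain, the age, the skin site, a vehicle for the untreated skin or whether libraries came from separate animals. The p-values therefore rest on library-to-library spread that may be technical only, and an effect of a vehicle cannot be told apart from one of MC903.

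Prostaglandins and leukotrienes are short-lived signalling lipids made from arachidonic acid, which phospholipases release from membranes. In the prostaglandin arm a cyclooxygenase, encoded by Ptgs1 in many resting tissues and by the inducible Ptgs2, makes an unstable intermediate that terminal synthases turn into prostaglandin E2 (Ptges) or prostaglandin D2 (Ptgds and Hpgds), and Hpgd encodes the dehydrogenase that starts their inactivation. In the leukotriene arm 5-lipoxygenase (Alox5), helped by its activating protein (Alox5ap), makes leukotriene A4, which the hydrolase of Lta4h turns into the neutrophil attractant leukotriene B4 and the synthase of Ltc4s into the cysteinyl leukotrienes. In skin the prostaglandin enzymes are known from keratinocytes among other cells, and Alox5 and Alox5ap mainly from cells of the immune system. RNA levels of these genes are not amounts of the lipids.

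Between 16869716 and 18485698 reads per library could be recovered from the deposited values, so that a single read over 1 kb of exon corresponds to 0.0496 to 0.0615 FPKM. The 10 genes held between 15 and 8093 reads per library, and the lowest counts were those of Ptgs2 in untreated skin. Markers of keratinocytes and fibroblasts were present in every library, as the label skin implies. The targeted gene Trpv3 stood at 4.73 to 6.82 FPKM in MC903 skin labelled knockout, against 16.1 to 19.0 in MC903 wild type skin. In untreated skin it stood at 2.62 to 3.64 FPKM where labelled knockout and 1.13 to 2.71 in wild type (a log2 difference of 0.61 with a standard error, SE, of 0.22 and a limma adjusted p = 0.1), so Trpv3 RNA was not lower in the untreated libraries labelled knockout, and genotypes are given here as labelled. The call for each gene rests on limma fitted to log2(FPKM + 0.5) over all 12 libraries, with p-values adjusted over all genes tested and a threshold of 0.05. Log2 fold changes on this scale understate the change of genes with low levels.

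**Figure D1:**
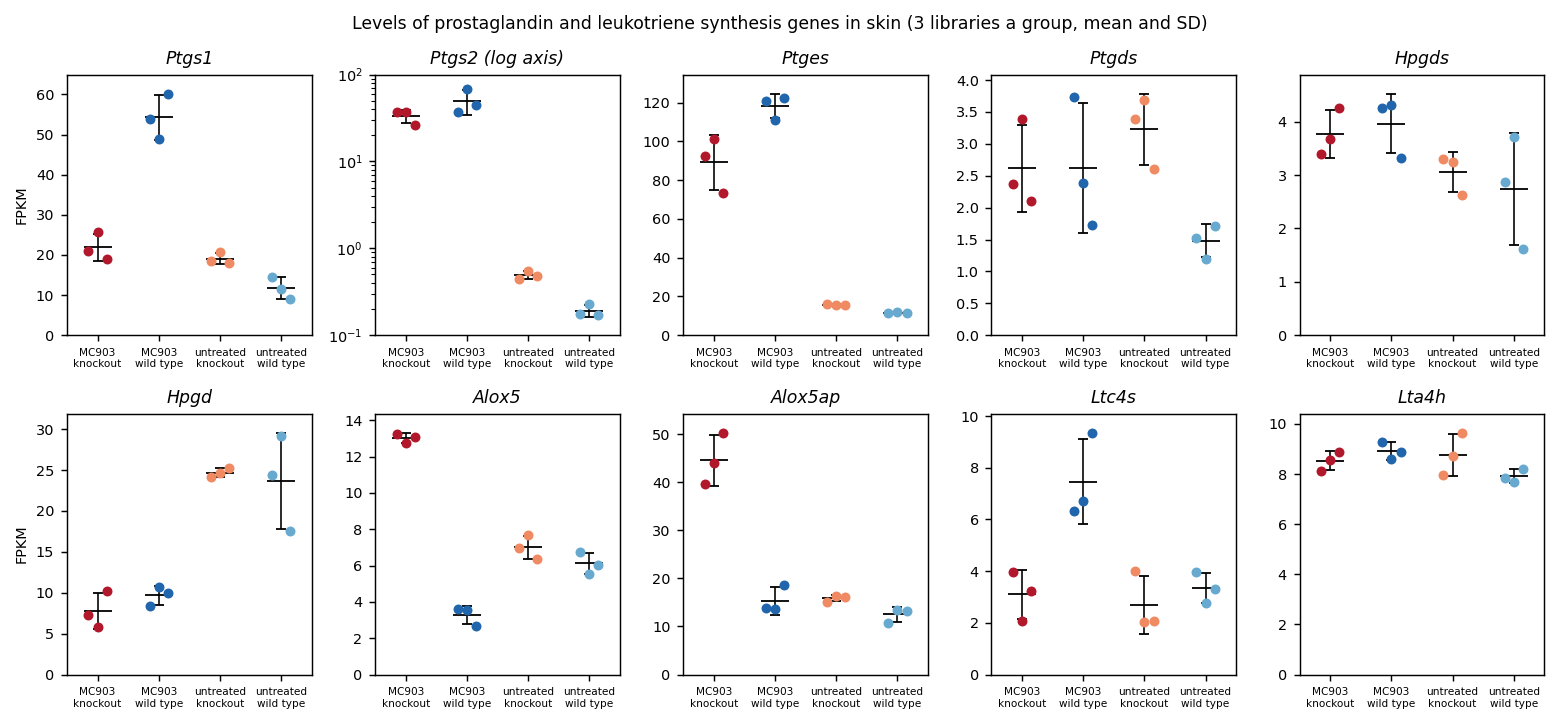
Level of each of the 10 genes in FPKM (vertical axes, from 0 except for Ptgs2, which has a log axis) in the 4 groups of skin libraries; points are libraries, the long bar is the mean and the whiskers are the SD of 3 libraries. Ptgs2 and Ptges stand higher in every MC903 library than in any untreated one, and Alox5 and Alox5ap stand highest in MC903 skin labelled knockout, at 12.7 to 13.3 and 39.6 to 50.2 FPKM.

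The cyclooxygenase and prostaglandin E2 synthase genes were higher after MC903, by more in wild type skin than in skin labelled knockout. Ptgs2 had the largest log2 fold change of the 10 genes in both genotypes, Ptges followed, and Ptgs1 rose in wild type skin while it did not pass the test in skin labelled knockout. Hpgd, the inactivating enzyme, fell in both. Of the 10 genes 5 passed the test in skin labelled knockout (4 higher and 1 lower), where 47.9% of all genes tested passed (25% higher and 23% lower). Of the 10 genes 7 passed in wild type skin (5 higher and 2 lower), where 63% of all genes tested passed (32.6% higher and 30.3% lower), so both shares are near the background. The median log2 fold change of the 10 genes was 0.23 in skin labelled knockout and 0.56 in wild type skin, against -0.00 and 0.02 over all genes. The direction of the background depended on the scaling between libraries. Of the genes called in skin labelled knockout 52.1% were higher, and 33.5% when the values were rescaled to TPM (the same total for every library), which moved the median of all genes by -0.18. Of those called in wild type skin 51.8% were higher, and 26.7% on the TPM scale (median moved by -0.43) or 40.02% when scaled by total reads (-0.17). In the genotype in which it passed, none of the 10 genes changed direction under these scalings.

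Ptgs2 (chromosome 1, 150100031 to 150108227 of mm10, plus strand) stood at 37.2, 36.7 and 26.5 FPKM in MC903 skin labelled knockout and at 0.447, 0.549 and 0.481 FPKM in untreated skin labelled knockout. In wild type skin it stood at 37.4, 67.7 and 44.9 FPKM after MC903 and at 0.176, 0.227 and 0.171 FPKM untreated. Untreated skin thus held very little of this RNA, 40 to 48 reads where labelled knockout and 15 to 21 reads in wild type, and no MC903 library came near those levels. The ratio of mean FPKM was 68.0 in skin labelled knockout (5.08 ± 0.19 as log2 fold change with its SE, limma adjusted p = 2.5e-08). It was 261 in wild type skin (6.15 ± 0.19, limma adjusted p = 3e-09).

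Ptges (chromosome 2, 30889471 to 30929863, minus strand), the synthase known to work downstream of inducible cyclooxygenase, stood at 92.8, 101 and 73.5 FPKM in MC903 skin labelled knockout and at 16.2, 15.7 and 15.4 FPKM in untreated skin labelled knockout. Wild type skin held 121, 111 and 123 FPKM after MC903 and 11.7, 11.8 and 11.4 FPKM untreated. The untreated libraries of a genotype were close to each other (SD 0.416 FPKM where labelled knockout and 0.200 FPKM in wild type) and far below every MC903 library. The ratio of mean FPKM was 5.65 in skin labelled knockout (2.45 ± 0.10, limma adjusted p = 6.6e-08) and 10.2 in wild type skin (3.29 ± 0.10, limma adjusted p = 3.5e-09).

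Ptgs1 (chromosome 2, 36230426 to 36252272, plus strand) stood at 21.0, 25.7 and 19.0 FPKM in MC903 skin labelled knockout, against 18.5, 20.6 and 18.1 FPKM in untreated skin labelled knockout. The wild type values were 53.9, 48.9 and 60.1 FPKM after MC903 and 14.5, 11.4 and 9.11 FPKM untreated. The treated and untreated libraries overlapped where labelled knockout and stood well apart in wild type. The log2 fold change was 0.19 (95% interval -0.16 to 0.54, limma adjusted p = 0.36) in skin labelled knockout and 2.19 ± 0.16 (limma adjusted p = 6.2e-07) in wild type skin, a ratio of means of 4.65. Exons of Ptgs1 share 148 bases with an opposite-strand gene, Gm43621, and whether the counting used strand is not stated in the labels.

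The response of these 3 genes was smaller in skin labelled knockout by the test of the difference itself. The log2 response differed, as knockout minus wild type, by -2.00 ± 0.22 for Ptgs1 (limma adjusted p = 0.00012), by -1.07 ± 0.27 for Ptgs2 (limma adjusted p = 0.01) and by -0.84 ± 0.15 for Ptges (limma adjusted p = 0.0014). Of the 10 genes 5 passed this test, 2 with a higher and 3 with a lower response in skin labelled knockout, where 39.7% of all genes tested passed (20% higher and 19.7% lower). Ptgds was just short of the threshold (-0.88 ± 0.33, limma adjusted p = 0.052) and passed under 8 of 22 other settings. Of all genes called, 50.3% had the higher response in skin labelled knockout, and 72.2% on the TPM scale or 61.9% by total reads. The median difference over the 10 genes was -0.63, against -0.01 over all genes. For Ptgs2 the size depends on how the low untreated levels are handled, and limma voom on the recovered reads gave -1.89 (limma adjusted p = 0.036).

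**Figure D2:**
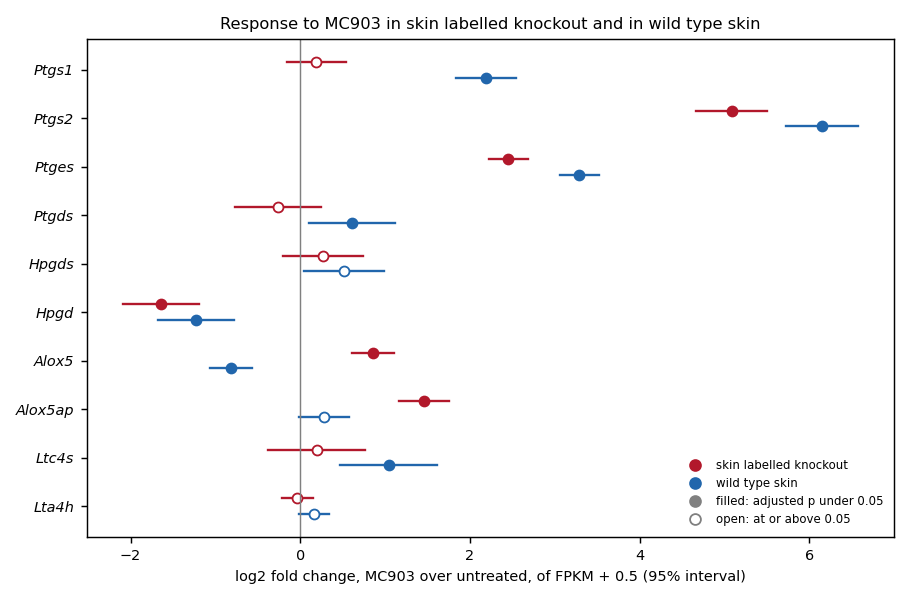
Log2 fold change of FPKM + 0.5, MC903 over untreated (horizontal axis), of each gene in skin labelled knockout (red) and in wild type skin (blue), with the 95% interval from limma; filled points passed an adjusted p of 0.05. Ptgs2 lies at 5.08 in skin labelled knockout and 6.15 in wild type skin, and Alox5 lies at 0.85 in skin labelled knockout and -0.82 in wild type skin, on opposite sides of 0.

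Of the 5 genes called higher with MC903 in wild type skin, Ptgds and Ltc4s are not printed here, and neither is Hpgd, which fell there. The proximal promoters of the others, Ptgs1, Ptgs2 and Ptges, are printed with that of Alox5, which fell as well. They are the 250 bases before the RefSeq start on GRCm38.p6, 5′ to 3′ on the gene's strand, in lower case with motif matches in capitals. The windows are chr2:36230176-36230425 (plus strand) for Ptgs1, chr1:150099781-150100030 (plus) for Ptgs2, chr2:30903298-30903547 (minus) for Ptges and chr6:116461179-116461428 (minus) for Alox5.
Ptgs1: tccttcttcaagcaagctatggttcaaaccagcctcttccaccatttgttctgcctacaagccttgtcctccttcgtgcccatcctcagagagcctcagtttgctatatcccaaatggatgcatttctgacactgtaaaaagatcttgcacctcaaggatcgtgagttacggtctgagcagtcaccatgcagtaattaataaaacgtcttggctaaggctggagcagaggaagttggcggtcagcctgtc
Ptgs2: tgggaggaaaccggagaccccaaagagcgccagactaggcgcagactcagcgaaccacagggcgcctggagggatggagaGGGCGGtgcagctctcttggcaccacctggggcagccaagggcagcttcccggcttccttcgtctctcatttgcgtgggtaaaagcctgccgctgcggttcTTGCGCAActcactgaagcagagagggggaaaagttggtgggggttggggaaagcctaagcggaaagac
Ptges: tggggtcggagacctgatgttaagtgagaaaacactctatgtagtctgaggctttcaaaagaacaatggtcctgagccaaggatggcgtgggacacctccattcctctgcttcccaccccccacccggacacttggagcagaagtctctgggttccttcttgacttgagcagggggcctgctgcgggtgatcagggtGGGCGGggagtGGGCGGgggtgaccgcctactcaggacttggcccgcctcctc
Alox5: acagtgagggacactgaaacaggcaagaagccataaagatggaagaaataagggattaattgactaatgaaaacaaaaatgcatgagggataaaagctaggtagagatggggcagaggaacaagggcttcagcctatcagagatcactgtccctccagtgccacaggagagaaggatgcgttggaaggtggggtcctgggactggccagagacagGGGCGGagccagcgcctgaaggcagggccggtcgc
The motifs searched, on both strands, were the GC box (GGGCGG), the TATA box (TATAAA), the AP-1 site (TGANTCA), the E box (CACGTG) and the C/EBP site (TTGCNNAA). The capitals mark, in Ptgs2, a GC box 170 to 165 bases and a C/EBP site 69 to 62 bases before the start. In Ptges they mark GC boxes 53 to 48 and 42 to 37 bases before the start, and in Alox5 a GC box 35 to 30 bases before it. The Ptgs1 window holds none of these letters and has the lowest share of G and C of the 4, 48.0%, against 61.6% in Ptgs2, 59.6% in Ptges and 52.8% in Alox5 and a median of 52.4% over 32851 mouse promoters. Of those promoters 32.7% hold the GC box, 12.4% the TATA box, 6.75% the AP-1 site, 6.02% the E box and 9.56% the C/EBP site. Of the 10 genes 9 matched an entry. Among the windows not printed, those of Ltc4s and Lta4h hold none of these motifs. The window of Ptgds holds an AP-1 site 35 to 29 bases before the start, and that of Hpgd a GC box 50 to 45 bases before it. That of Hpgds holds a C/EBP site 176 to 169 bases before the start. The RefSeq starts of Ptges, Ptgds, Hpgds and Ltc4s lie inside the intervals of the deposited genes, so other starts of these genes are not covered by their windows. A match is a description of the letters and does not show binding.

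The prostaglandin D2 synthases stayed at low levels in all groups. Ptgds (chromosome 2, 25466709 to 25470046, minus strand), the lipocalin-type synthase, stood at 2.37, 3.39 and 2.10 FPKM in MC903 skin labelled knockout and at 3.38, 3.69 and 2.60 FPKM in untreated skin labelled knockout. The wild type values of Ptgds were 3.73, 2.39 and 1.73 FPKM after MC903 and 1.52, 1.20 and 1.71 FPKM untreated. The treated and untreated libraries overlapped where labelled knockout, and in wild type skin the lowest MC903 library was just above the highest untreated one. The log2 fold change was -0.27 (95% interval -0.77 to 0.24, limma adjusted p = 0.37) in skin labelled knockout and 0.61 ± 0.23 (limma adjusted p = 0.037) in wild type skin. That call rested on 40 to 103 reads per library and ended under 8 of 23 other settings, among them leaving out MC903 wild type replicate 1 (0.37, limma adjusted p = 0.15) or replicate 2 (0.64, limma adjusted p = 0.062) and untreated wild type replicate 1 (0.63, limma adjusted p = 0.065) or replicate 2 (0.51, limma adjusted p = 0.11). Hpgds (chromosome 6, 65117293 to 65144908, minus strand), the haematopoietic synthase known from mast cells and other leukocytes, ranged from 3.39 to 4.26 FPKM in MC903 skin labelled knockout and from 2.62 to 3.30 FPKM in the untreated skin with that label. The wild type range of Hpgds was 3.32 to 4.31 FPKM after MC903 and 1.62 to 3.71 FPKM untreated. It passed in neither genotype (0.27 with limma adjusted p = 0.33 in skin labelled knockout and 0.51 with limma adjusted p = 0.055 in wild type skin). The wild type value of Hpgds passed under 5 of 23 other settings. These were without untreated wild type replicate 2 (0.73, limma adjusted p = 0.0083) or MC903 wild type replicate 3 (0.62, limma adjusted p = 0.045), with library weights (0.40, limma adjusted p = 0.021), with limma voom (0.60, limma adjusted p = 0.036) and with replicate number as a block (0.51, limma adjusted p = 0.04).

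Hpgd (chromosome 8, 56294585 to 56321043, plus strand) moved the other way from the synthase Ptges. It stood at 7.34, 5.79 and 10.2 FPKM in MC903 skin labelled knockout and at 24.1, 24.7 and 25.2 FPKM in untreated skin labelled knockout. Wild type skin held 8.35, 10.7 and 9.94 FPKM of Hpgd after MC903 and 24.4, 29.1 and 17.5 FPKM untreated. Every MC903 library lay below every untreated one in both genotypes. The log2 fold change was -1.64 ± 0.20 (limma adjusted p = 8.4e-05) in skin labelled knockout and -1.23 ± 0.20 (limma adjusted p = 0.00029) in wild type skin, and their difference did not pass (-0.41, 95% interval -1.04 to 0.22, limma adjusted p = 0.27). Within a library the FPKM of Ptges was 7.19 to 17.5 times that of Hpgd in MC903 skin labelled knockout and 10.4 to 14.5 times in MC903 wild type skin. In untreated skin it was 0.612 to 0.673 times where labelled knockout and 0.404 to 0.652 times in wild type, so Ptges lay above Hpgd in every MC903 library and below it in every untreated one.

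Alox5 and Alox5ap, which act at the first step of the leukotriene arm, differed in their response between the genotypes. Both rose with MC903 in skin labelled knockout, whereas in wild type skin Alox5 fell and Alox5ap did not pass the test. Fewer cells that carry an RNA and less of it per cell cannot be told apart in bulk skin RNA. Alox5 (chromosome 6, 116410077 to 116461178, minus strand) stood at 13.3, 12.7 and 13.1 FPKM in MC903 skin labelled knockout and at 6.94, 7.67 and 6.38 FPKM in untreated skin labelled knockout. The wild type values of Alox5 were 3.58, 3.55 and 2.68 FPKM after MC903 and 6.74, 5.54 and 6.05 FPKM untreated. The treated libraries lay above the untreated ones where labelled knockout and below them in wild type, with no overlap in either. The log2 fold change was 0.85 ± 0.11 (limma adjusted p = 0.00013) in skin labelled knockout and -0.82 ± 0.11 (limma adjusted p = 7.8e-05, and -1.33 on the TPM scale) in wild type skin, and these responses differed by 1.67 ± 0.16 (limma adjusted p = 6.6e-05).

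Alox5ap (chromosome 5, 149264767 to 149288153, plus strand) stood at 39.6, 43.9 and 50.2 FPKM in MC903 skin labelled knockout and at 15.1, 16.4 and 16.1 FPKM in untreated skin labelled knockout. Wild type skin held 13.8, 13.6 and 18.7 FPKM of Alox5ap after MC903 and 10.8, 13.5 and 13.2 FPKM untreated. In wild type the lowest treated library exceeded the highest untreated one by little, whereas the treated libraries labelled knockout stood far above all others. The log2 fold change was 1.46 ± 0.13 (limma adjusted p = 1.2e-05), a ratio of means of 2.81, in skin labelled knockout. In wild type skin it was 0.28 (95% interval -0.02 to 0.57, limma adjusted p = 0.093), and -0.19 on the TPM scale. The wild type value passed with library weights (0.42, limma adjusted p = 0.0066) and with replicate number as a block (0.28, limma adjusted p = 0.035). The responses differed by 1.18 ± 0.19 (limma adjusted p = 0.00084). Exons of Alox5ap share 189 bases with an opposite-strand gene, Gm19719.

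Of the genes of the last leukotriene steps, Ltc4s rose with MC903 in wild type skin and Lta4h did not pass the test in either genotype. Ltc4s (chromosome 11, 50236461 to 50238616, minus strand) stood at 3.97, 2.07 and 3.25 FPKM in MC903 skin labelled knockout and at 3.99, 2.02 and 2.06 FPKM in untreated skin labelled knockout. The wild type values of Ltc4s were 6.31, 6.73 and 9.34 FPKM after MC903 and 3.96, 2.79 and 3.30 FPKM untreated. The MC903 wild type libraries were above those of the other 3 groups, which overlapped with each other. The log2 fold change was 0.19 (95% interval -0.38 to 0.76, limma adjusted p = 0.57) in skin labelled knockout and 1.04 ± 0.26 (limma adjusted p = 0.0045) in wild type skin, where it did not pass on the TPM scale (0.64, limma adjusted p = 0.063). The difference of the responses did not pass (-0.85, 95% interval -1.65 to -0.04, limma adjusted p = 0.088). Ltc4s held 38 to 159 reads per library and its exons share 268 bases with an opposite-strand gene, Gm26542. Lta4h (chromosome 10, 93453411 to 93484875, plus strand) varied least of the 10 genes, from 7.70 to 9.63 FPKM over the 12 libraries. Its log2 fold change with MC903 was -0.03 (95% interval -0.21 to 0.14) in skin labelled knockout and 0.16 (-0.02 to 0.34) in wild type skin, and neither passed (limma adjusted p = 0.75 and 0.1). On the TPM scale they were -0.23 (limma adjusted p = 0.046) in skin labelled knockout and -0.30 (limma adjusted p = 0.0081) in wild type skin, where the direction turned, relative to a median of all genes that moved there by -0.18 and -0.43.

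After MC903 the skin labelled knockout held more RNA of Alox5 and Alox5ap than wild type skin and less of Ptgs1, Ptgs2, Ptges and Ltc4s. Of the 10 genes these 6 passed the test, 2 higher and 4 lower, where 52.1% of all genes tested passed (25.9% higher and 26.1% lower). The median log2 difference of the 10 genes was -0.19, against -0.03 over all genes. Of all genes called, 49.8% were higher in skin labelled knockout, and 73.7% on the TPM scale, which moved the median of all genes by 0.27. Alox5 was 3.98-fold higher in mean FPKM (1.85 ± 0.11, limma adjusted p = 1.8e-06) and Alox5ap 2.90-fold higher (1.52 ± 0.13, limma adjusted p = 9.2e-06). The mean of Ptgs1 was 0.403 times that of wild type (-1.30 ± 0.16, limma adjusted p = 6.5e-05), that of Ltc4s 0.415 times (-1.16 ± 0.26, limma adjusted p = 0.0032) and that of Ptges 0.755 times (-0.42 ± 0.10, limma adjusted p = 0.0066). The libraries of the 2 genotypes did not overlap for any of these 5 genes, and the share of all genes tested without overlap was not counted. On the TPM scale the difference of Ptges did not pass (-0.12, limma adjusted p = 0.38).

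Ptgs2 was 0.669 times the wild type mean after MC903 (-0.54 ± 0.19, limma adjusted p = 0.033), and its highest library labelled knockout, at 37.2 FPKM, lay just under the lowest wild type library, at 37.4 FPKM. That call ended without MC903 knockout replicate 3 (-0.39, limma adjusted p = 0.13) and without MC903 wild type replicate 2 (-0.31, limma adjusted p = 0.12), and under 4 other settings (limma adjusted p of 0.065 to 0.36). The other 4 genes did not pass. The log2 difference was -0.32 for Hpgd (95% interval -0.77 to 0.12, limma adjusted p = 0.2), 0.03 for Ptgds (-0.48 to 0.54, limma adjusted p = 0.93), -0.06 for Hpgds (-0.53 to 0.41, limma adjusted p = 0.84) and -0.06 for Lta4h (-0.24 to 0.12, limma adjusted p = 0.56). Hpgd passed without MC903 knockout replicate 3, the highest of its group (-0.53, limma adjusted p = 0.044). On the TPM scale Lta4h was higher in skin labelled knockout (0.23, limma adjusted p = 0.04) and the small difference of Hpgds turned to 0.22 (limma adjusted p = 0.51).

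In untreated skin the genotypes differed less, and the 3 genes that passed, Ptgs1, Ptges and Ptgds, belong to the prostaglandin arm. Of the 10 genes 3 passed, all higher in skin labelled knockout, where 11.7% of all genes tested passed (7.15% higher and 4.55% lower). The median log2 difference of the 10 genes was 0.26, against 0.01 over all genes. Of all genes called, 61.1% were higher in skin labelled knockout, and 49.7% when scaled by total reads. With the libraries given above, Ptgs1 differed by 0.70 ± 0.16 (limma adjusted p = 0.018), Ptges by 0.42 ± 0.10 (limma adjusted p = 0.027) and Ptgds by 0.91 ± 0.23 (limma adjusted p = 0.029), and for none of the 3 did the libraries of the genotypes overlap. How many of all genes tested had libraries without overlap was not counted. The 3 calls depended on single libraries. None of the 3 passed without untreated knockout replicate 1 (limma adjusted p = 0.054, 0.092 and 0.093 for Ptgs1, Ptges and Ptgds), without untreated knockout replicate 2 (0.075, 0.084 and 0.11) or without untreated wild type replicate 2 (0.051, 0.062 and 0.093). Ptges alone lost its call without untreated knockout replicate 3 (limma adjusted p = 0.065), and Ptges and Ptgds lost it without untreated wild type replicate 1 (limma adjusted p = 0.059 and 0.061). Leaving out each of the 6 untreated libraries in turn kept the log2 difference between 0.55 and 0.87 for Ptgs1, between 0.40 and 0.44 for Ptges and between 0.80 and 1.03 for Ptgds. Ptgs1 also lost its call when the untreated groups were fitted alone (limma adjusted p = 0.073) and stood at 0.44 with library weights (limma adjusted p = 0.01), and Ptgds lost its call with no filter on low levels (limma adjusted p = 0.065).

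Ptgs2 did not pass in untreated skin (0.52 ± 0.19, limma adjusted p = 0.1), although its 3 libraries labelled knockout, at 0.447 to 0.549 FPKM, lay above the 3 wild type libraries, at 0.171 to 0.227 FPKM. The pseudocount of 0.5 is larger than these levels, and with a pseudocount of 0.1 the difference was 1.03 (limma adjusted p = 0.012). It also passed on the TPM scale (0.91, limma adjusted p = 0.024), with library weights (0.54, limma adjusted p = 0.012) and without MC903 wild type replicate 2, which changes the shared estimate of spread (0.52, limma adjusted p = 0.037). Alox5ap, of the leukotriene arm, was 0.34 higher (95% interval 0.04 to 0.63, limma adjusted p = 0.13), with no overlap between the genotypes. It passed with library weights (0.49, limma adjusted p = 0.0031). Alox5 was 0.18 higher (-0.07 to 0.43, limma adjusted p = 0.32). The remaining 4 genes, Hpgds, Hpgd, Ltc4s and Lta4h, lay between -0.32 and 0.19 with overlapping libraries (limma adjusted p of 0.31 to 0.82).

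**Figure D3:**
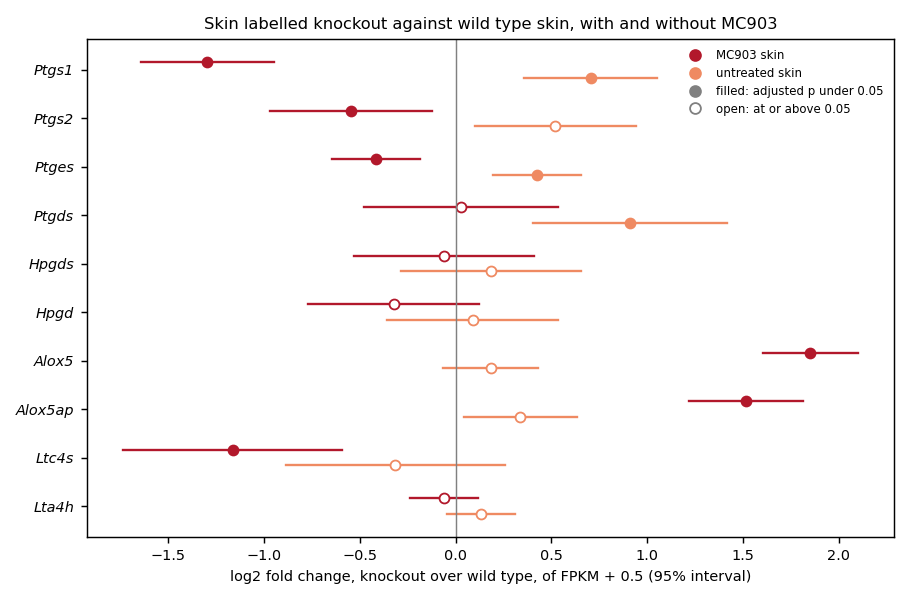
Log2 fold change of FPKM + 0.5, skin labelled knockout over wild type skin (horizontal axis), of each gene after MC903 (red) and untreated (orange), with the 95% interval from limma; filled points passed an adjusted p of 0.05. Ptgs1 lies at -1.30 after MC903 and 0.70 untreated, and Ptges at -0.42 after MC903 and 0.42 untreated, whereas Alox5 lies at 1.85 after MC903 and 0.18 untreated.

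The order of the 10 genes by level differed between the groups. In MC903 skin labelled knockout Ptges was highest (89.2 ± 14.3 FPKM, mean ± SD, n = 3), followed by Alox5ap (44.6 ± 5.35), Ptgs2 (33.5 ± 6.03), Ptgs1 (21.9 ± 3.40) and Alox5 (13.0 ± 0.273), and no neighbours among these 5 overlapped. In MC903 wild type skin Ptges was highest (118 ± 6.36), followed by Ptgs1 (54.3 ± 5.64) and Ptgs2 (50.02 ± 15.8), which overlapped, and then by Alox5ap (15.3 ± 2.88), while Alox5 (3.27 ± 0.510) was ninth. Untreated skin of both genotypes was led by Hpgd (24.7 ± 0.527 where labelled knockout and 23.7 ± 5.85 in wild type) and had Ptgs2 last (0.492 ± 0.0522 where labelled knockout and 0.191 ± 0.0312 in wild type). Within a library the FPKM of Ptgs2 was 1.39 to 1.77 times that of Ptgs1 in MC903 skin labelled knockout and 0.694 to 1.39 times in MC903 wild type skin. In untreated skin it was 0.0242 to 0.0266 times where labelled knockout and 0.0121 to 0.0199 times in wild type. Ptgs2 therefore exceeded Ptgs1 in all 3 MC903 libraries labelled knockout and in 1 of 3 MC903 wild type libraries, and these ratios do not depend on the scaling between libraries. The ratio of Alox5ap to Alox5 was 2.98 to 3.84 in MC903 skin labelled knockout, 3.83 to 6.96 in MC903 wild type skin, 2.14 to 2.52 in untreated skin labelled knockout and 1.60 to 2.43 in untreated wild type skin, so Alox5ap was above Alox5 in every library.

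Marker RNA of several cell types moved with these genes. The 7 basal keratinocyte markers (Krt5, Krt14, Krt15, Itga6, Itgb4, Col17a1 and Trp63) summed to 3489 to 4877 FPKM in MC903 skin labelled knockout, 12362 to 17305 FPKM in MC903 wild type skin, 2012 to 2302 FPKM in untreated skin labelled knockout and 1726 to 2019 FPKM in untreated wild type skin. After MC903 7 of 7 were lower in skin labelled knockout, the direction of Ptgs1, Ptgs2, Ptges and Ltc4s, and in untreated skin 0 of 7 passed. The 8 monocyte and macrophage markers (Adgre1, Csf1r, Cd68, Mrc1, Cd163, Fcgr1, C1qa and Ccr2) summed to 474 to 709 FPKM in MC903 skin labelled knockout, 250 to 324 FPKM in MC903 wild type skin, 273 to 295 FPKM in untreated skin labelled knockout and 160 to 256 FPKM in untreated wild type skin. After MC903 7 of 8 were higher in skin labelled knockout, the direction of Alox5 and Alox5ap. With MC903 7 of 8 rose in skin labelled knockout, while in wild type skin 3 rose and 1 fell. The same direction after MC903 was shown by 7 of 9 mast cell markers, whose sum was 404 to 464 FPKM in MC903 skin labelled knockout and 179 to 207 FPKM in MC903 wild type skin, and by 4 of 4 neutrophil markers tested, whose list of 6 summed to 96.5 to 144 FPKM in MC903 skin labelled knockout and 35.2 to 50.7 FPKM in MC903 wild type skin. It was also shown by 3 of 4 basophil markers (72.0 to 96.6 FPKM in MC903 skin labelled knockout and 14.9 to 17.6 FPKM in MC903 wild type skin). This direction was not particular to leukocytes. The markers of fibroblasts (6 of 6), endothelial cells (4 of 4), Schwann cells (4 of 4), melanocytes (4 of 4) and platelets (3 of 3 tested) were higher too, while 2 of 4 suprabasal keratinocyte markers were lower. Of 5 dendritic and Langerhans cell markers tested 4 were higher and 1 lower. The sum of that list of 6 went the other way, with 20.3 to 24.0 FPKM in MC903 skin labelled knockout and 31.0 to 32.0 FPKM in MC903 wild type skin. Of 4 T cell markers tested 2 were higher and 0 lower, and of 4 adipocyte markers 1 was higher and 1 lower. Over all genes tested 25.9% were higher and 26.1% lower in this comparison. The 6 neutrophil markers summed to 5.62 to 7.87 FPKM in untreated skin labelled knockout and 3.20 to 3.22 FPKM in untreated wild type skin. Of them Ly6g was at 0 in all 6 untreated libraries and averaged 1.01 FPKM in MC903 skin labelled knockout and 0.257 FPKM in MC903 wild type skin. The mast cell markers summed to 322 to 329 FPKM in untreated skin labelled knockout and 249 to 361 FPKM in untreated wild type skin, and 7 of 9 fell with MC903 in wild type skin, as Alox5 did. So did 6 of 6 fibroblast, 4 of 4 endothelial, 4 of 4 Schwann cell, 4 of 4 adipocyte, 3 of 4 T cell and 3 of 5 dendritic and Langerhans cell markers. The part of the makeup of the skin in the results for these genes was not tested.

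In untreated skin, beside Ptgs1, Ptges and Ptgds, 4 of 6 immediate early genes were higher in skin labelled knockout (their sum was 102 to 179 FPKM there and 55.5 to 75.6 FPKM in wild type), as were 4 of 6 fibroblast markers (4427 to 5128 FPKM where labelled knockout and 1100 to 1987 FPKM in wild type), 4 of 8 monocyte and macrophage, 3 of 4 neutrophil, 3 of 5 dendritic and Langerhans cell and 3 of 4 melanocyte markers. All 4 adipocyte markers were lower there (204 to 232 FPKM where labelled knockout and 314 to 489 FPKM in wild type). Of the other lists, 0 of 9 mast cell, 0 of 4 basophil, 0 of 7 basal keratinocyte and 0 of 4 endothelial markers passed. Higher were 1 of 4 suprabasal keratinocyte and 1 of 4 T cell markers, and lower were 1 of 3 platelet and 1 of 4 Schwann cell markers. Of all genes tested 7.15% were higher and 4.55% lower. Mitochondrial genes took 2.45% to 2.64% of the reads in untreated skin labelled knockout and 4.17% to 6.28% in untreated wild type skin. The part of these in the untreated differences was not tested.

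Of the phospholipase genes listed as upstream of both arms, Pla2g4d, Pla2g4e, Pla2g4f and Pla2g2f rose with MC903 in both genotypes, by less in skin labelled knockout. Here and for the further genes, FPKM values are means ± SD of 3 libraries and log2 values are ± SE. Of 20 listed phospholipase and lipase genes 15 were tested. With MC903 5 rose and 4 fell in skin labelled knockout, where 25% of all genes tested rose and 23% fell, and 7 rose and 5 fell in wild type skin, where 32.6% rose and 30.3% fell. These shares over all genes are also the background for the MC903 counts of the lists below. Pla2g4a, also in the phospholipase list, averaged 6.51 ± 0.891 FPKM in MC903 skin labelled knockout and 5.51 ± 0.214 FPKM in untreated skin labelled knockout. Its wild type means were 5.68 ± 0.478 FPKM after MC903 and 4.10 ± 0.625 FPKM untreated. The release of arachidonic acid was not measured. Pla2g4f, a cytosolic phospholipase A2, averaged 30.1 ± 5.30 FPKM in MC903 skin labelled knockout and 8.32 ± 0.399 FPKM in untreated skin labelled knockout (1.78 ± 0.15, limma adjusted p = 6.8e-06). In wild type skin it averaged 103 ± 11.9 FPKM after MC903 and 4.85 ± 0.884 FPKM untreated (4.29 ± 0.15, limma adjusted p = 6.3e-09). The response of Pla2g4f differed by -2.50 ± 0.22 (limma adjusted p = 4e-05), that of Pla2g2f, a secreted epidermal phospholipase, by -2.40 ± 0.30 (limma adjusted p = 0.00023), that of Pla2g4e by -1.90 ± 0.19 (limma adjusted p = 8.4e-05) and that of Pla2g4d, which averaged 0.0943 FPKM in untreated skin labelled knockout and 0.0692 FPKM in untreated wild type skin, by -1.83 ± 0.27 (limma adjusted p = 0.00057, and -2.82 with limma voom). In all, 7 of the 15 genes had a lower and 3 a higher response in skin labelled knockout, against 19.7% and 20% of all genes tested. In untreated skin 5 of the 15 were higher and 2 lower where labelled knockout, against 7.15% and 4.55% of all genes tested. Among the higher were Pla2g4e (4.63 ± 0.472 FPKM where labelled knockout, 1.92 ± 0.169 FPKM in wild type, limma adjusted p = 0.0017) and Pla2g2f (97.7 ± 13.0 FPKM where labelled knockout, 38.8 ± 13.6 FPKM in wild type, limma adjusted p = 0.0042).

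Of 10 other prostanoid synthase and reductase genes, 2 rose and 4 fell with MC903 in skin labelled knockout, and 2 rose and 3 fell in wild type skin. Ptgis, the prostacyclin synthase of vessels and stroma, averaged 5.62 ± 0.783 FPKM in MC903 wild type skin against 36.5 ± 16.4 FPKM in untreated wild type skin (-2.51 ± 0.26, limma adjusted p = 9.1e-06), and after MC903 it was higher in skin labelled knockout (18.2 ± 3.30 FPKM, 1.60 ± 0.26, limma adjusted p = 0.00045). Cbr1, a carbonyl reductase that acts on prostaglandins, fell in both genotypes (-0.93 ± 0.12 where labelled knockout, limma adjusted p = 0.00011, and -0.90 ± 0.12 in wild type, limma adjusted p = 6.1e-05). Ptgr1, a reductase that inactivates prostaglandins and leukotriene B4, responded with -0.89 ± 0.15 in skin labelled knockout (limma adjusted p = 0.0007), and its response differed from that in wild type skin by -1.86 ± 0.22 (limma adjusted p = 0.00015). The cytosolic prostaglandin E synthase Ptges3 rose in both genotypes (0.96 ± 0.09 where labelled knockout, limma adjusted p = 1.1e-05, and 0.60 ± 0.09 in wild type, limma adjusted p = 0.00012). Its wild type value was 0.38 by total reads (limma adjusted p = 0.0038) and did not pass on the TPM scale (0.12, limma adjusted p = 0.25).

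The prostanoid receptor genes Ptger3, Ptger4, Ptgfr, Ptgir and Tbxa2r and the transporter gene Slco2a1 were higher in skin labelled knockout after MC903. Of 11 listed receptor and transporter genes 7 were tested, and 6 of the 7 were higher there and 0 lower, where 25.9% of all genes tested were higher and 26.1% lower. The other 4 were too low to be tested. Of these Ptgdr, a prostaglandin D2 receptor, averaged 0.0516 FPKM in MC903 skin labelled knockout (3 reads per library) and 0.697 FPKM in MC903 wild type skin (21 to 52 reads). Ptgdr2, the other receptor of prostaglandin D2, averaged 0.346 FPKM in MC903 skin labelled knockout and 0.0306 FPKM in MC903 wild type skin. The prostaglandin E2 receptor genes Ptger1 and Ptger2 averaged 0.160 and 0.524 FPKM in MC903 skin labelled knockout and 0.236 and 0.292 FPKM in MC903 wild type skin. Beside them 6 of 6 fibroblast, 4 of 4 endothelial and 4 of 4 Schwann cell markers were higher in the same comparison, and their part in these results was not tested. Ptgfr, the receptor of prostaglandin F2 alpha, averaged 7.81 ± 0.586 FPKM in MC903 skin labelled knockout and 2.26 ± 0.155 FPKM in MC903 wild type skin (1.59 ± 0.12, limma adjusted p = 3.3e-06). The prostacyclin receptor Ptgir averaged 7.58 ± 1.02 FPKM in MC903 skin labelled knockout and 2.33 ± 0.0900 FPKM in MC903 wild type skin (1.51 ± 0.12, limma adjusted p = 5e-06). Ptger3, a prostaglandin E2 receptor, averaged 4.24 ± 0.373 FPKM in MC903 skin labelled knockout, 2.12 ± 0.279 FPKM in MC903 wild type skin, 3.503 ± 0.240 FPKM in untreated skin labelled knockout and 6.01 ± 0.779 FPKM in untreated wild type skin. It was higher in skin labelled knockout after MC903 (0.86 ± 0.11, limma adjusted p = 0.00012) and lower in untreated skin (-0.70 ± 0.11, limma adjusted p = 0.0052). With MC903 2 of the 7 rose and 2 fell in skin labelled knockout, and 1 rose and 4 fell in wild type skin. The one that rose in wild type skin, the prostaglandin transporter gene Slco2a1 (0.41 ± 0.10, limma adjusted p = 0.0033), stood at -0.02 on the TPM scale (limma adjusted p = 0.92) and at 0.22 by total reads (limma adjusted p = 0.068).

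After MC903 the leukotriene B4 receptor genes were lower and the cysteinyl leukotriene receptor gene Cysltr1 was higher in skin labelled knockout than in wild type skin. Ltb4r1 averaged 29.2 ± 4.83 FPKM in MC903 skin labelled knockout, 60.7 ± 4.90 FPKM in MC903 wild type skin, 8.21 ± 0.637 FPKM in untreated skin labelled knockout and 5.62 ± 0.692 FPKM in untreated wild type skin. It rose in both genotypes (1.76 ± 0.13 where labelled knockout, limma adjusted p = 2.2e-06, and 3.32 ± 0.13 in wild type, limma adjusted p = 1.1e-08), by less in skin labelled knockout (difference -1.57 ± 0.18, limma adjusted p = 0.00014). Ltb4r2 averaged 7.84 ± 0.473 FPKM in MC903 skin labelled knockout, 16.02 ± 1.74 FPKM in MC903 wild type skin, 4.41 ± 0.284 FPKM in untreated skin labelled knockout and 2.84 ± 0.284 FPKM in untreated wild type skin, and its responses differed by -1.54 ± 0.14 (limma adjusted p = 5.6e-05). Cysltr1, which binds cysteinyl leukotrienes, averaged 5.06 ± 0.865 FPKM in MC903 skin labelled knockout and 1.51 ± 0.445 FPKM in MC903 wild type skin (1.48 ± 0.18, limma adjusted p = 5.7e-05), and 3.28 ± 0.310 FPKM in untreated skin labelled knockout and 2.85 ± 0.495 FPKM in untreated wild type skin. Cyp4f18, which breaks down leukotriene B4 in neutrophils, averaged 18.1 ± 1.78 FPKM in MC903 skin labelled knockout and 6.96 ± 0.756 FPKM in MC903 wild type skin (1.32 ± 0.18, limma adjusted p = 0.00012), and its exons share 181 of 1855 bases with the opposite-strand gene Zfp961. Of the 7 genes tested of 11 in this list, 5 rose and 0 fell with MC903 in skin labelled knockout, and 4 rose and 1 fell in wild type skin.

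The other lipoxygenase genes, 6 of 6, were higher in untreated skin labelled knockout than in untreated wild type skin. Of all genes tested 7.15% were higher and 4.55% lower. Where these 6 genes lie relative to each other and to Trpv3 was not examined, so they may not be independent of each other or of the targeted locus. Alox15, which in the mouse is expressed by alternatively activated macrophages and eosinophils, averaged 2.02 ± 0.127 FPKM in untreated skin labelled knockout and 0.167 ± 0.108 FPKM in untreated wild type skin (1.93 ± 0.17, limma adjusted p = 0.00037), where it held 3 to 13 reads. The pseudocount of 0.5 is larger than that wild type level, and limma voom gave 3.74 (limma adjusted p = 0.0008). Alox8 averaged 10.6 ± 5.06 FPKM in untreated skin labelled knockout and 0.701 ± 0.787 FPKM in untreated wild type skin (3.30 ± 0.42, limma adjusted p = 0.0017), and Alox12b, needed for the barrier lipids of the epidermis, 18.2 ± 4.13 FPKM where labelled knockout and 6.44 ± 2.94 FPKM in wild type (1.48 ± 0.27, limma adjusted p = 0.008). The calls of Alox12b and of Alox12e (1.28 ± 0.24, limma adjusted p = 0.0082) did not pass when the untreated groups were fitted alone (limma adjusted p = 0.059 and 0.056). With MC903 1 of the 6 rose and 1 fell in skin labelled knockout, while 5 rose in wild type skin. The responses of 5 of 6 were lower in skin labelled knockout, those of Alox12 (-1.32 ± 0.27), Alox12b (-2.39 ± 0.39), Alox12e (-2.36 ± 0.33) and Aloxe3 (-2.23 ± 0.33) among them (limma adjusted p of 0.00042 to 0.0029), and 1 was higher. Over all genes tested 19.7% were lower and 20% higher by this test. After MC903 4 of the 6 were lower and 1 higher where labelled knockout (26.1% and 25.9% of all genes tested). Alox15 then averaged 9.35 ± 2.10 FPKM where labelled knockout and 0.884 ± 0.145 FPKM in wild type.

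**Figure D4:**
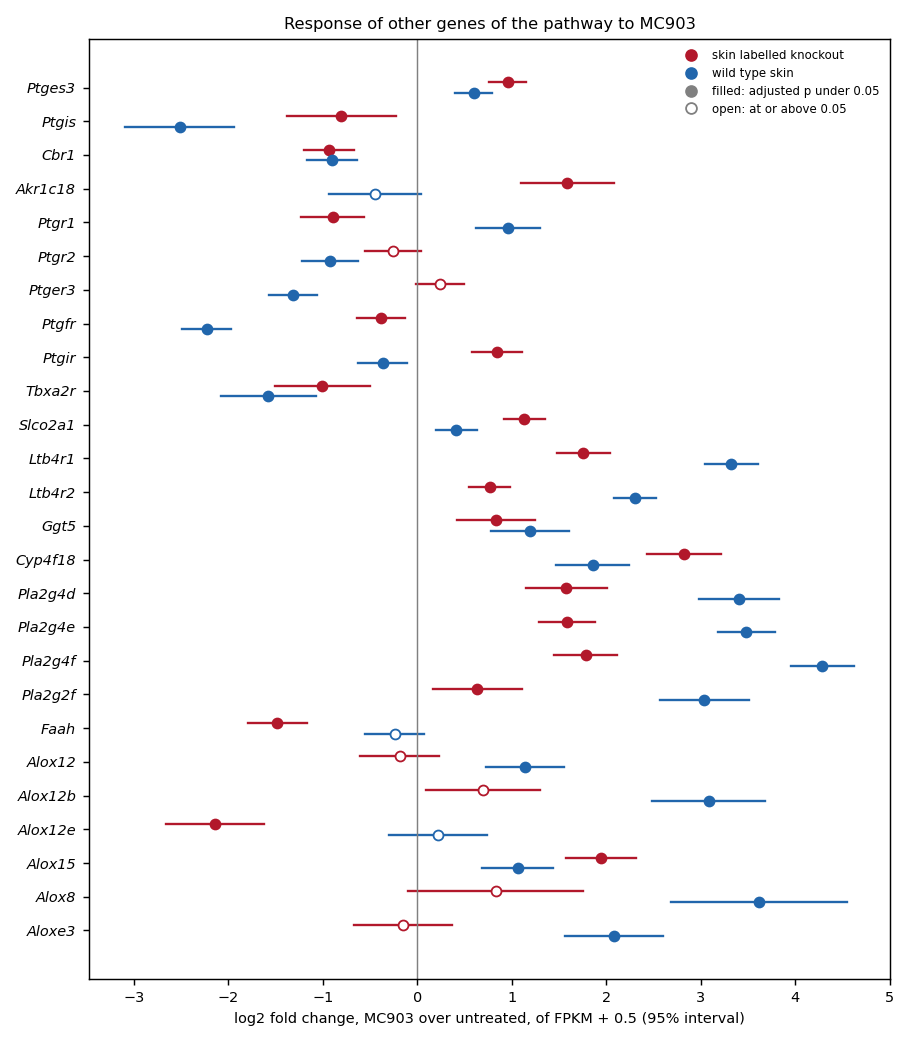
Log2 fold change of FPKM + 0.5, MC903 over untreated (horizontal axis), of the other pathway genes named for either MC903 response, in skin labelled knockout (red) and in wild type skin (blue), with the 95% interval from limma; filled points passed an adjusted p of 0.05. Pla2g4f lies at 1.78 in skin labelled knockout and 4.29 in wild type skin, and Ltb4r1 at 1.76 in skin labelled knockout and 3.32 in wild type skin.

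The genes whose pattern over the 12 libraries was most like that of each of the 10 genes are given by Pearson's r of log2(FPKM + 0.5), as a description over libraries that share 4 groups and 1 scaling. For Ptgs1 they were Tmem54, Nectin1 and Rhod (each 0.99), for Ptgs2 Cdhr1, Tle4 and Gprc5a (each 0.995), and for Ptges Eif4a1 (0.998), Rptn (0.997) and Rack1 (0.996). For Alox5 they were Ptpn7, Ube2j1 and Il6st (each 0.98). For Alox5ap they were Mrc1, which is in the macrophage marker list above, Laptm5 and Cd300ld (each 0.99). For Hpgd they were Fmo2 (0.97), Gli1 (0.97) and Tmem44 (0.96). The highest values were 0.92 for Ptgds (Foxk1), 0.95 for Hpgds (Zcchc2), 0.93 for Ltc4s (Ccdc163) and 0.90 for Lta4h (Fbxl15).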

How the data were processed

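RNA of 12 skin libraries was analysed from the deposited table of 54532 genes, and the 3 samples of dorsal root ganglion in the series are not used here. Per the labels' protocols, poly-A RNA was primed with random hexamers. The submitters' processing notes name featureCounts and mm10, and the aligner, annotation release and FPKM tool were not given in the sources used. The FPKM values deposited by the authors equal whole reads per gene length within a tolerance of 0.01 for 100% of values, with denominators 0.917 to 1.11 times the recovered totals that followed median-of-ratios size factors to within 0.566%, so they were taken as already scaled. Pairs of replicates within groups had chi-square values of 6.46 to 60.1 times their degrees of freedom, more than read sampling gives.

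Genes with FPKM of at least 0.5 in at least 3 libraries (17646) were fitted with limma on log2(FPKM + 0.5) over the 4 groups (8 residual degrees of freedom, eBayes, mean trend). Tests were two-sided, with Benjamini-Hochberg adjustment over all genes within each of 5 comparisons, and all adjusted p-values come from limma. The procedure was tested on simulated data. The 10 genes, the lists and the tests were chosen with earlier results of these data known. Other pathway genes are named where they passed and the group with more RNA averaged an FPKM of 1 or more, up to 4 per list and comparison by adjusted p. Pla2g4a and some receptor genes are given beside them. The 3 genes of highest Pearson r, predicted names left out, were named as most like each gene. The alternatives were pseudocounts of 0.1 and 1, no filter and an FPKM of at least 1, TPM and total-read scaling, robust eBayes, limma voom applied to recovered reads, weights per library, a block for replicate number, fits of the compared groups alone and leaving out each library. Same-numbered libraries deviated together with correlations of -0.13 to 0.14, so the numbers were not taken as pairs. R 4.3.3, limma 3.58.1, Python 3.11.15, numpy 2.4.6, pandas 2.3.3 and matplotlib 3.10.9 were used.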

Additional observations from a re-analysis of the deposited data

Results flagged for a closer look

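For 5 of the 10 genes the response to MC903 differed between skin labelled knockout and wild type skin by the test of the difference itself, given as knockout minus wild type on the log2(FPKM + 0.5) scale. The difference was -2.00 for Ptgs1, -1.07 for Ptgs2 and -0.839 for Ptges (limma adjusted p = 0.00012, 0.01 and 0.0014), whose responses were 0.19, 5.08 and 2.45 in skin labelled knockout and 2.19, 6.15 and 3.29 in wild type skin. It was 1.67 for Alox5 and 1.18 for Alox5ap (limma adjusted p = 6.6e-05 and 0.00084), whose responses were 0.85 and 1.46 in skin labelled knockout and -0.82 and 0.28 in wild type skin. Among all genes tested 39.7% passed the same test.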

How the results depend on the processing

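Of the comparisons of the 10 genes under the other settings, 1069 values kept their direction and side of the threshold. A further 30 lost and 24 gained a call without turning direction, and 17 turned direction, with or without a change of call. Of the other named genes 2069 kept both, 26 lost a call and 1 turned, and the cause was not tested except where named. The number of the 10 genes that passed stayed within 6 to 8 for MC903 in wild type skin when 1 library was left out, at 5 for MC903 in skin labelled knockout, within 5 to 6 between genotypes after MC903, within 5 to 6 for the difference of responses and within 0 to 4 between genotypes in untreated skin. It was 0 there without untreated knockout replicate 1, untreated knockout replicate 2 or untreated wild type replicate 2 and 1 without untreated wild type replicate 1, against 3, and 5 with library weights. All genes called in untreated skin numbered 2064, and 6548 with library weights, 613 with these groups fitted alone and 714 to 3561 with 1 library left out. The other counts of all genes with 1 library left out were 10071 to 11186 (MC903, wild type), 6726 to 9285 (MC903, labelled knockout), 7789 to 9972 (genotypes after MC903) and 5737 to 8000 (difference of responses).

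Values that turned direction were small and did not pass, except where an adjusted p is given. The TPM scale moved the median of all genes by -0.43 to 0.27. There they were Alox5ap (-0.19), Lta4h (-0.30, limma adjusted p = 0.0081) and Slco2a1 (-0.015) for MC903 in wild type skin. For MC903 in skin labelled knockout it was Ptgs1 (-0.0016). Between genotypes after MC903 they were Hpgds (0.22) and Lta4h (0.23, limma adjusted p = 0.04), and for the difference of responses Lta4h (0.078). By total reads they were Lta4h (-0.043) for MC903 in wild type skin and Hpgds (0.025) and Lta4h (0.030) between genotypes after MC903. With 1 library left out they were Lta4h for MC903 in skin labelled knockout (range -0.099 to 0.032, turned without untreated knockout replicate 3), Ptgds between genotypes after MC903 (-0.19 to 0.28, turned without MC903 knockout replicate 2, at -0.14, or MC903 wild type replicates 2 and 3) and Hpgds there (-0.17 to 0.0059, turned without MC903 knockout replicate 1). Without untreated wild type replicate 3 they were Hpgds (-0.092 to 0.40) and Hpgd (-0.11 to 0.25) between genotypes in untreated skin and Hpgds (-0.46 to 0.032) for the difference of responses.

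With replicate number as a block, 9 of the 10 genes passed for MC903 in wild type skin (7 without it), 5 for MC903 in skin labelled knockout, 6 between genotypes after MC903, 3 between genotypes in untreated skin and 7 for the difference of responses (5 without it). The block added Hpgds (limma adjusted p = 0.04) and Alox5ap (0.035) to the first and Ptgds (0.048) and Ltc4s (0.048) to the last. All genes called with the block were 11176, 8471, 9304, 2124 and 7046 in the same order of comparisons. Depth limits Ptgs2 in untreated skin, Ptgds and Ltc4s, with as few as 15, 40 and 38 reads per library.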
